A study of Mus musculus with 4 samples.

Results

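The mevalonate pathway to squalene was followed here through 9 genes, taken in the order in which their enzymes act: *Acat2*, *Hmgcs1*, *Mvk*, *Pmvk*, *Mvd*, *Idi1*, *Fdps*, *Fdft1* and *Sqle*. They were chosen by the gene name that the array files give to a probe, which found 12 probes of 55681 on the array and 9 genes of 36499. After the filter on dim probes all 9 genes remained among 20231. The files hold 4 two-colour expression arrays of mouse neural stem/progenitor cells (NSPCs), cells that form neurons and glia and are grown as floating spheres with EGF and FGF. The labels give the strain Slc:ICR and embryonic day 13.5 for the cells of both genotypes. On 2 arrays they were wild-type and on 2 arrays Trp53-/-, lacking p53 in every cell, and the latter were bred from *Trp53*-heterozygous mice. On each array RNA of cells treated with 20 μM PJ34, an inhibitor of poly(ADP-ribose) polymerases (PARPs), was labelled with Cy5 and RNA of untreated control cells of the same genotype with Cy3. The duration of treatment and the number of embryos behind each culture are not given in the sources used here. The study asked which transcripts change when PARPs are inhibited and whether the changes need p53.

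The pathway builds isoprenoids and cholesterol from acetyl-CoA. Acetyl-CoA units are joined and reduced to mevalonate, which is phosphorylated and decarboxylated to isopentenyl diphosphate, and these units are then joined to farnesyl diphosphate and squalene. Its genes are known targets of the sterol regulatory element-binding proteins (SREBPs), transcription factors that are released when membrane sterol is low and that act together with NF-Y, a factor that binds CCAAT. Dividing cells need its products for new membrane and for the lipid anchors of small GTPases.

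The sequence before the start site is shown for the 4 members whose windows held CCAAT, the letters that NF-Y is known to bind, at least 2 times. Of the 9 members, 6 had at least 1 window of 250 bases before an annotated start in RefSeq (GRCm38.p6). *Fdps*, *Fdft1* and *Sqle* had none. CCAAT, searched on both strands, was found in 5 of the 7 windows of the 6 members, and in 33.8% of all 32817 windows of this length. It was present at least 2 times in 4 of the 7 windows, those of *Hmgcs1*, *Mvk*, *Mvd* and *Idi1*, which holds for 10.1% of all windows. TCACNCCAC, the core of a sterol regulatory element, was found in the window of *Hmgcs1* only among the 6, and in 1.05% of all windows. The 2 motifs did not overlap. In the sequences below, written 5′ to 3′ on the strand of the gene, capitals mark CCAAT or its complement ATTGG and, in *Hmgcs1*, TCACNCCAC. The windows are chr13:119690101-119690350 (plus strand) for *Hmgcs1*, chr5:114444019-114444268 (plus strand) for *Mvk*, chr8:122443423-122443672 (minus strand) for *Mvd* and chr13:8885356-8885605 (plus strand) for *Idi1*.
Hmgcs1: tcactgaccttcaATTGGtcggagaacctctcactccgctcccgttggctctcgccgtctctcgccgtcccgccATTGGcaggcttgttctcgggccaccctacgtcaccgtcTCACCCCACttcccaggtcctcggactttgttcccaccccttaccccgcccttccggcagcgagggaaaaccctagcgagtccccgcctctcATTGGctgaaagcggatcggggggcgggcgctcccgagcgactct
Mvk: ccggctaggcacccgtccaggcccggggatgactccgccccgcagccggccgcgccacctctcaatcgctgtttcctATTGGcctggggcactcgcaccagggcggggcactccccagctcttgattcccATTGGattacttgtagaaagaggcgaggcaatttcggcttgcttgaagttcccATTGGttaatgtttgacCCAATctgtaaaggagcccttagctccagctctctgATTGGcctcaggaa
Mvd: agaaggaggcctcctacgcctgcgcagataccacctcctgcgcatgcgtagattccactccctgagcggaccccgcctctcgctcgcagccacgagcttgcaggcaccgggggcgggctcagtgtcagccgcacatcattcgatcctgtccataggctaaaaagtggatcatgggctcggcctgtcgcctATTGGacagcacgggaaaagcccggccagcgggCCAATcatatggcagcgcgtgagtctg
Idi1: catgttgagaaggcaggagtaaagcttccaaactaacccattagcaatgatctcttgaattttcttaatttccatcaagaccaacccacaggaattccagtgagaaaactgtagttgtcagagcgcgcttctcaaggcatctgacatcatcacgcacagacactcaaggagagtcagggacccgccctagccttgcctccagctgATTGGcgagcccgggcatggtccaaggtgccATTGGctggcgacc
In *Hmgcs1* the TCACNCCAC match lay 129 bases before the start and the nearest CCAAT 41 bases before it. *Mvk* held 5 CCAAT matches, between 10 and 169 bases before the start. The 2 matches of *Mvd* lay 23 and 56 bases before the start, and those of *Idi1* 10 and 41 bases. The window of *Acat2* held neither motif, and of the 2 windows of *Pmvk* 1 held a single CCAAT. A match of letters does not show that a factor was bound in these cells.

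The response of a gene is given as the log2 of its PJ34 signal over its control signal, on which scale -1 is a 2-fold decrease, after normexp background correction and loess within each array. Between 21505 and 24540 probes were well above background in the control channel of an array and between 26081 and 27156 in the PJ34 channel, and no spot was saturated. Across genes, which are not independent replicates, the ratios of replicates correlated at 0.701 in wild-type and at 0.645 in Trp53-/- cells. All 10 listed markers of neural stem and progenitor cells were well above background in both channels of every array, and none of the 4 fibroblast markers was. The control level of *Trp53* itself was 8.28 and 8.49 (log2 intensity) on the wild-type arrays and 7.56 and 7.83 on the Trp53-/- arrays, still above background, and whether this probe lies in the deleted part of the gene is not given in the sources used here. The array of Trp53-/- replicate 2 stood apart in sex-linked genes. Its log2 ratios were 4.22 for *Eif2s3y*, 3.12 for *Ddx3y* and -1.39 for *Xist*, whereas on the other 3 arrays these genes lay between -0.20 and 0.84. In its control channel *Xist* (7.51) was well above background, and *Eif2s3y* (6.26) and *Ddx3y* (6.18) were not. In its PJ34 channel this was reversed, with *Xist* at 6.12, *Eif2s3y* at 10.5 and *Ddx3y* at 9.29. On this array PJ34 and the sex of the cultures cannot be told apart. Results of the members in Trp53-/- cells are therefore given with and without this array, as are the medians of the other lists.

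Transcripts along nearly the whole pathway were lower with PJ34 in wild-type NSPCs. By limma with Storey's q below 0.05, 8 of the 9 members were lower, where 11.3% of all genes tested were, and no member was higher. The median of the members was -0.71 and that of all genes tested 0.03. The exception was *Pmvk*. The largest mean decreases were those of *Mvd*, *Idi1* and *Fdps*, in the middle of the pathway. Under the criteria of the study (p and q below 0.05 and more than 2-fold), *Mvd* alone was called, against 0.213% of all genes called lower.

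In Trp53-/- NSPCs 7 of the 9 members were lower at q below 0.05, where 10.5% of all genes were, and the median was -0.62. *Acat2* and *Pmvk* did not pass. No member was called with the 2-fold limit, where 0.272% of all genes were called lower. After loess every member had a log2 ratio below 0 on all 4 arrays, as did 17.3% of all genes, but with arrays centred on the median of all spots the means of 3 members in wild-type and 8 in Trp53-/- cells were above 0. Without Trp53-/- replicate 2 the median of the members in this genotype was -0.67, and *Mvd* (-1.11) was lowered more than 2-fold. With Trp53-/- replicate 2 alone the median was -0.52, with *Mvk* and *Fdft1* at -0.37 each. A lone array gives no spread of its own.

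**Figure D1:**
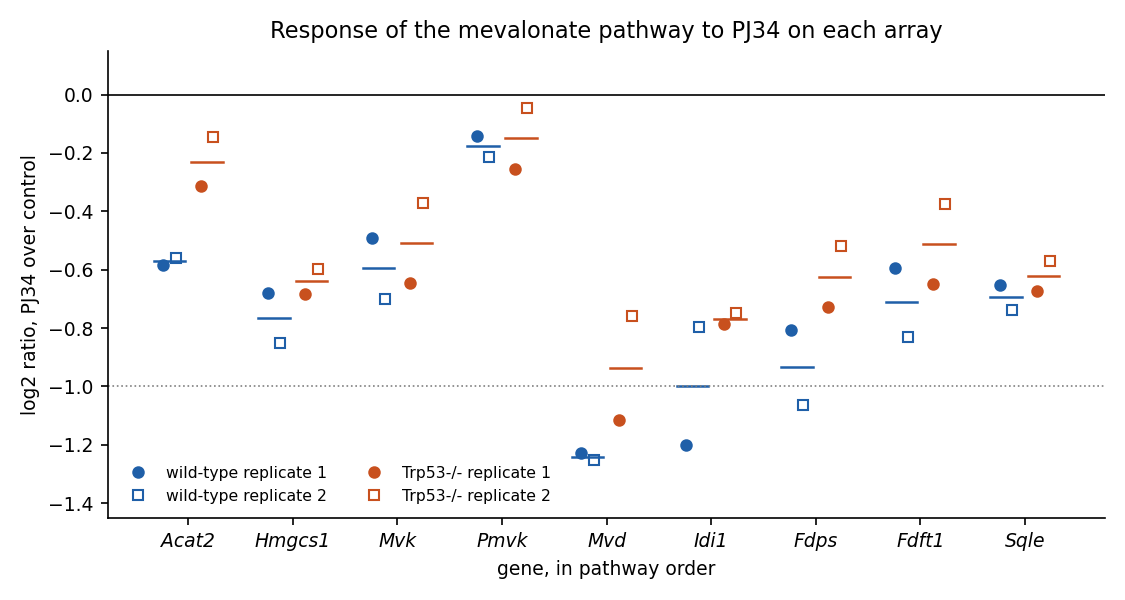
Log2 ratio of PJ34 over control (y axis) for each of the 9 genes in pathway order (x axis), with 1 symbol per array, a short line at the mean of each genotype (n = 2 arrays) and a dotted line at a 2-fold decrease. All 36 values lie below 0 after loess (with centring on all spots, 3 wild-type and 8 Trp53-/- means do not), the *Mvd* values of 3 arrays lie below -1, and *Pmvk* lies nearest to 0.

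The first 2 genes supply HMG-CoA. *Acat2*, the cytosolic thiolase that joins 2 acetyl-CoA to acetoacetyl-CoA, was read from a probe at chr17:13136482-13136541 of mm9, the build of the files. Its log2 ratios were -0.58 and -0.56 in wild-type replicates 1 and 2, and -0.32 and -0.14 in Trp53-/- replicates 1 and 2. The groups did not overlap, and both wild-type arrays were the lower ones. The wild-type mean was -0.57 ± 0.02 (SD, n = 2), a decrease of 1.49-fold with q = 0.00122 in limma. The Trp53-/- mean of -0.23 ± 0.12 (SD, n = 2) did not pass, with q = 0.058 in limma, but the call turned on the setting. It passed with no background correction (q = 0.0473), a stricter filter (q = 0.0458), a gene's probes averaged (q = 0.0492), the numbers crossed as a block (q = 0.0382) and centring on the kept genes (q = 0.029). *Hmgcs1*, the cytosolic HMG-CoA synthase that adds a further acetyl unit, was read at positions 114793 to 114852 of a contig of chromosome 13 that mm9 leaves unplaced. It had -0.68 and -0.85 in wild-type and -0.68 and -0.60 in Trp53-/- cells. Here the groups overlapped at wild-type replicate 1 and Trp53-/- replicate 1. The means were -0.77 ± 0.12 and -0.64 ± 0.06 (SD, n = 2), with q of 0.000334 and 0.00121 in limma.

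Mevalonate is then phosphorylated by 2 kinases. *Mvk*, mevalonate kinase (chr5:114910540-114910599), had -0.49 and -0.70 in wild-type and -0.64 and -0.37 in Trp53-/- cells, overlapping ranges with q of 0.00179 and 0.00484. A second *Mvk* probe had means of -0.50 and -0.44, near the -0.60 and -0.51 of the brighter probe. *Pmvk*, phosphomevalonate kinase (chr3:89272867-89272926), had -0.14 and -0.21 in wild-type and -0.26 and -0.05 in Trp53-/- cells. Its wild-type mean of -0.18 ± 0.05 (SD, n = 2) had q = 0.116 in limma and a 95% interval from -0.39 to 0.03, so a decrease of up to 1.31-fold lies within the error. The second *Pmvk* probe (chr3:89272739-89272798) was lower in wild-type, with -0.39 and -0.37 and a probe-level q of 0.0155, and in Trp53-/- cells its mean of -0.24 had q = 0.0685. The 2 *Pmvk* probes therefore disagreed on the wild-type call, and over their mean (-0.28) *Pmvk* passed with q = 0.0347.

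*Mvd* encodes the decarboxylase that turns mevalonate diphosphate into isopentenyl diphosphate, and it had the largest decrease of the pathway. Its probe (chr8:124957750-124957809) gave -1.23 and -1.25 in wild-type, and -1.11 and -0.76 in Trp53-/- cells, so the wild-type arrays lay close together and below both Trp53-/- arrays. The wild-type mean of -1.24 ± 0.02 (SD, n = 2) was a decrease of 2.36-fold with q = 6.31e-05 in limma, the 10th lowest of 20231 genes. The Trp53-/- mean was -0.94 ± 0.25 (SD, n = 2), 1.91-fold with q = 0.000352.

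*Idi1* encodes the isomerase that makes dimethylallyl diphosphate, and *Fdps* the synthase that joins these units to farnesyl diphosphate, the branch point towards sterols, dolichol, ubiquinone and prenylated proteins. *Idi1* (chr13:8891524-8891583) had -1.20 and -0.80 in wild-type and -0.79 and -0.75 in Trp53-/- cells. Its wild-type mean of -0.998 ± 0.29 (SD, n = 2) was a decrease of 1.998-fold with q = 0.000221 in limma, just short of the 2-fold limit, and it rested on replicate 1 more than on replicate 2. In Trp53-/- cells the mean was -0.77 ± 0.03 (SD, n = 2). *Fdps* (chr3:88897549-88897608) had -0.81 and -1.06 in wild-type and -0.73 and -0.52 in Trp53-/- cells, with no overlap. Its means were -0.93 ± 0.18 and -0.62 ± 0.15 (SD, n = 2), with q of 0.000224 and 0.00199 in limma.

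The last 2 genes commit carbon to sterols. *Fdft1*, squalene synthase, was read from a probe whose ends lie at 63765750 and 63769990 of chromosome 14. It had -0.59 and -0.83 in wild-type and -0.65 and -0.37 in Trp53-/- cells, with q of 0.000753 and 0.00497 in limma. The other *Fdft1* probe was dim, not well above background in either channel of the 4 arrays, and was not used. *Sqle*, squalene epoxidase, acts on the product and is known as a second rate-limiting step of cholesterol synthesis. Its probe (chr15:59162688-59162747) gave the most even values, -0.65 and -0.74 in wild-type and -0.67 and -0.57 in Trp53-/- cells, with means of -0.70 ± 0.06 and -0.62 ± 0.07 (SD, n = 2) and q of 0.00044 and 0.00121.

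Within a genotype PJ34 and the dye cannot be told apart, since PJ34 was labelled with Cy5 on every array. The size of the decrease also depended on the normalization. Centring on the median of all spots shifted all genes to a median of 0.46 in wild-type and 0.63 in Trp53-/- cells. Relative to that shift the members had medians of -0.47 and -0.22, and 8 of the 9 lay below it in each genotype. The member probes used were well above background in both channels of every array. With each array centred on the median of the kept genes in place of loess, the medians of the members were -0.48 in wild-type and -0.22 in Trp53-/- cells. In each genotype 8 members were then lower at q below 0.05 in limma, where 26.1% of all genes were lower in wild-type and 36.7% in Trp53-/- cells, and *Pmvk* was above 0, with 0.06 in wild-type and 0.20 in Trp53-/- cells.

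**Figure D2:**
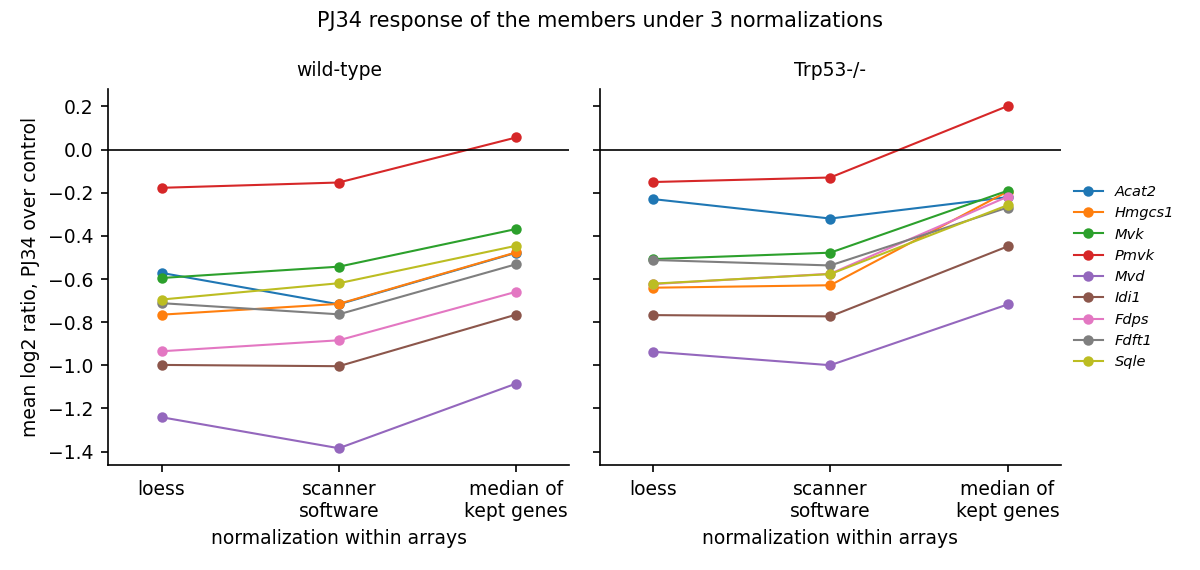
Mean log2 ratio of PJ34 over control (y axis, n = 2 arrays) of each member in wild-type (left) and Trp53-/- cells (right) under 3 normalizations (x axis): loess, the scanner software's own ratios, and centring on the median of the kept genes. *Mvd* is the lowest in all 6 columns and *Pmvk* the highest, and centring moves most members towards 0.

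Whether the response depends on p53 was tested as the difference between genotypes, wild-type minus Trp53-/-. All 9 differences were below 0, between -0.34 for *Acat2* and -0.03 for *Pmvk*, with a median of -0.20. None passed q below 0.05 in limma, where 0.47% of all genes were lower and 1.27% higher. At an unadjusted p below 0.05 in limma 1 member passed, *Acat2*, where 14.4% of all genes did, and with Benjamini-Hochberg adjustment none did. The difference of *Acat2* had a 95% interval from -0.63 to -0.06 and q = 0.184. The intervals of *Mvd* (-0.30, from -0.63 to 0.02) and *Fdps* (-0.31, from -0.63 to 0.01) included 0. That of *Sqle* (-0.07) ran from -0.36 to 0.21, and none of the 9 intervals reached a 2-fold difference. Both wild-type ratios were below both Trp53-/- ratios in *Acat2*, *Mvd*, *Idi1* and *Fdps*, 4 of the 9, where this held for 23.9% of all genes. All 9 members were less lowered in Trp53-/- replicate 2, the array that stood apart in sex-linked genes, than in Trp53-/- replicate 1. Without replicate 2 the median difference was -0.08, with 7 of 9 below 0, and without wild-type replicate 2 it was -0.08 too. *Mvk* and *Pmvk* were the members that turned above 0 in both cases.

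**Figure D3:**
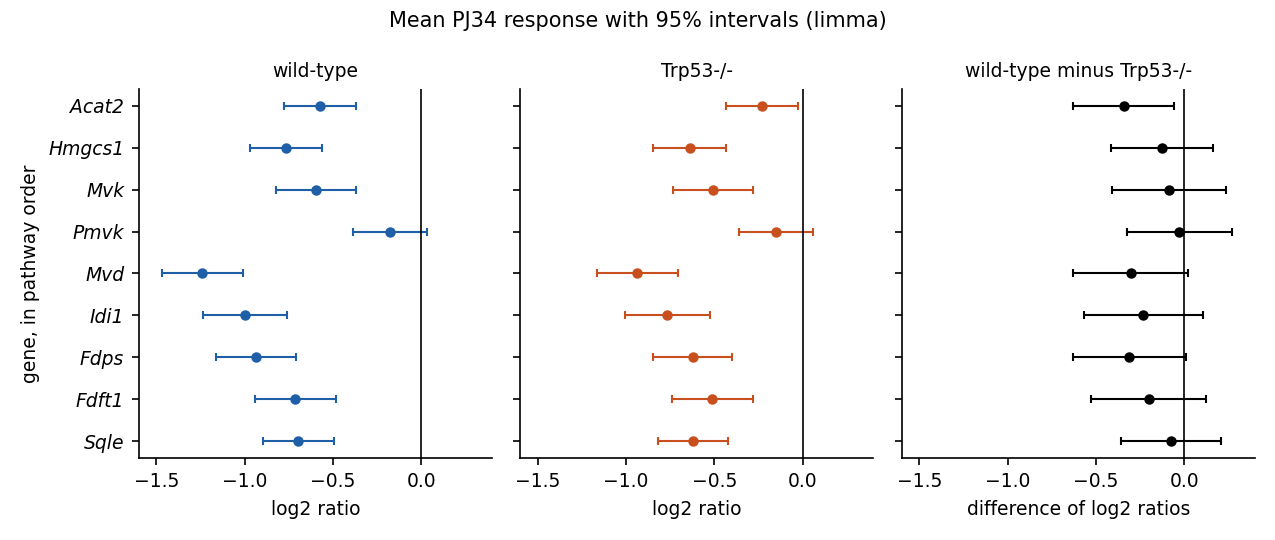
Mean log2 ratio of each member in wild-type and Trp53-/- cells and the difference between them (x axes), with 95% intervals from limma over 4 arrays, genes in pathway order (y axis). In wild-type every interval but that of *Pmvk* lies below 0, and in the difference only that of *Acat2* does, before adjustment for multiple tests.

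The untreated levels of the pathway were compared between genotypes in the control channel, with the mean intensity of both channels set to the same quantiles on each array. Levels are log2 intensities and are compared for 1 probe at a time. The sex-linked *Eif2s3y* had control levels of 8.96 and 8.46 in wild-type and 6.01 and 6.26 in Trp53-/- cells. *Ddx3y* had 8.25 and 8.04 against 6.04 and 6.18, and *Xist* 7.23 and 6.56 against 7.59 and 7.51. Neither *Eif2s3y* nor *Ddx3y* was well above background in the control channel of the Trp53-/- arrays. In this comparison the sex of the cultures and the genotype therefore cannot be told apart. No member differed between Trp53-/- and wild-type cells at q below 0.05 in limma, where 3.67% of all genes were lower and 3.86% higher in Trp53-/- cells. At an unadjusted p below 0.05 in limma there were 2, *Acat2* and *Idi1*, where 23.3% of all genes passed. The median of the differences, Trp53-/- minus wild-type, was -0.11. *Acat2* had the largest one. Its control levels were 9.02 and 9.54 in wild-type and 8.62 and 8.39 in Trp53-/- cells, without overlap, and the difference was -0.77 with a 95% interval from -1.33 to -0.22 and q = 0.0681. *Idi1* had 13.65 and 13.24 in wild-type and 12.82 and 12.95 in Trp53-/- cells, also without overlap, with a difference of -0.56 and q = 0.0959. The third gene with lower levels on both Trp53-/- arrays was *Mvk*, at 12.81 and 13.14 against 12.66 and 12.79. Such a separation was found for 28.7% of all genes, and the opposite one, seen in *Pmvk*, for 27.5%. *Pmvk* had 12.83 and 13.04 in wild-type and 13.08 and 13.15 in Trp53-/- cells.

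*Mvd* had 10.48 and 11.19 in wild-type and 11.16 and 11.15 in Trp53-/- cells, so that its difference of 0.32 came from wild-type replicate 1. *Fdft1* likewise had 11.11 and 11.77 in wild-type around 11.48 and 11.32 in Trp53-/- cells. *Hmgcs1* had 15.01 and 14.45 against 14.88 and 14.91, and *Sqle* 13.76 and 13.58 against 13.66 and 13.46. *Fdps* had 14.44 and 14.34 against 14.07 and 14.34. In these 5 genes the genotypes overlapped, and the interval of *Mvd*, the member with the largest response to PJ34, ran from -0.31 to 0.95.

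**Figure D4:**
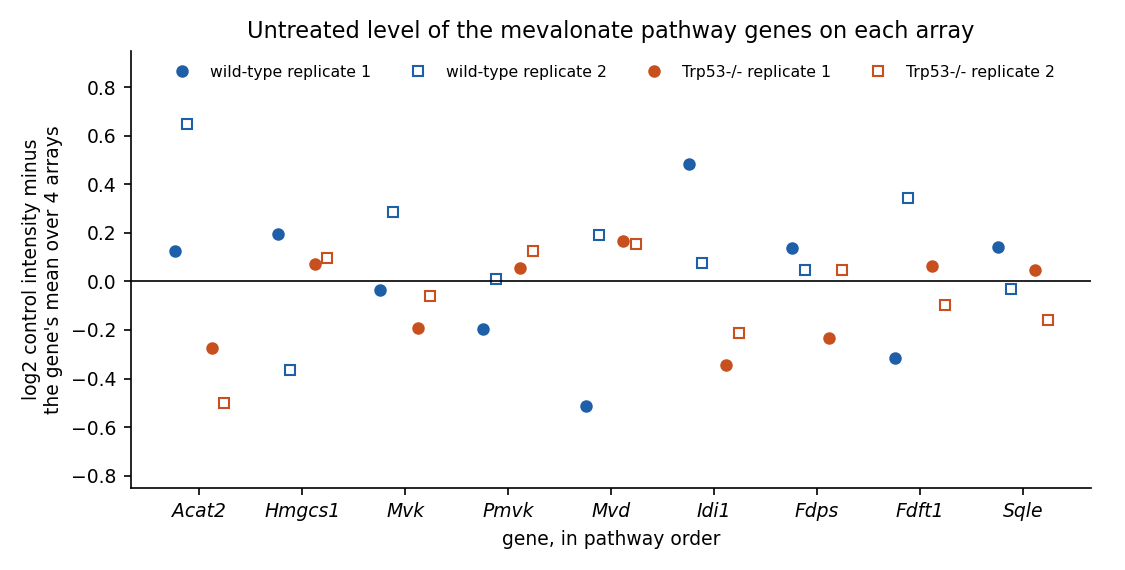
Untreated level of each member on each array, as log2 intensity of the control channel minus the gene's mean over the 4 arrays (y axis), genes in pathway order (x axis). *Acat2*, *Mvk* and *Idi1* lie lower on both Trp53-/- arrays, *Pmvk* higher, and the other 5 genes overlap.

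The neighbours of the pathway were counted by lists. One list holds *Acat1*, the mitochondrial thiolase, and the branches to dolichol, ubiquinone and prenyl groups. Of its 10 kept genes, 4 were lower at q below 0.05 in wild-type. In Trp53-/- cells 3 were lower and 1 higher. The medians were -0.13 in both genotypes (-0.09 in Trp53-/- cells without replicate 2), nearer to all genes than to the members.

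The list of enzymes after squalene moved with the members. All 11 were lower at q below 0.05 in wild-type, with a median of -0.80. In Trp53-/- cells 7 of 11 were, with a median of -0.55 (-0.60 without replicate 2). *Lss*, which closes the sterol ring, was called in wild-type with -1.29 and -1.32, against -0.83 and -0.56 in Trp53-/- cells. *Dhcr7*, the last reductase of cholesterol synthesis, was called in wild-type with -0.91 and -1.40, against -0.83 and -0.56. The difference between genotypes passed for 1 of these 11 genes, *Lbr*, a sterol reductase of the inner nuclear membrane that also binds lamin, named here after its value was seen. It had -0.73 and -0.68 in wild-type and 0.03 and -0.01 in Trp53-/- cells, with q = 0.0186 for the difference in limma. Without Trp53-/- replicate 2 its difference was -0.73 and did not pass (q = 0.06).

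Among genes of SREBP control and cholesterol transport, 6 of 20 kept genes were lower and 6 higher in wild-type. In Trp53-/- cells 5 were lower and 4 higher. The medians were 0.08 in wild-type and 0.02 in Trp53-/- cells (0.02 without replicate 2). Of all genes 13.6% were higher in wild-type and 12.8% in Trp53-/- cells. *Insig1*, which holds SREBPs in the endoplasmic reticulum and is itself an SREBP target, was lower with means of -0.73 and -0.52 and q of 0.000753 and 0.00489. *Srebf2*, the gene of SREBP-2, was lower with -0.55 and -0.42 (q of 0.00153 and 0.00656). *Srebf1* ran the other way, with 0.27 in wild-type (q = 0.0543) and 0.36 in Trp53-/- cells (q = 0.0208). Without Trp53-/- replicate 2, *Insig1* (-0.62) and *Srebf2* (-0.49) passed in that genotype, with q of 0.0239 and 0.0398 in limma, and *Srebf1* did not (0.32, q = 0.191). *Apoe*, a carrier of cholesterol, was the gene called in the untreated comparison, 2.24 higher in Trp53-/- cells on the log2 scale with q = 0.0425 in limma, where 1.89% of all genes were called higher. Without Trp53-/- replicate 2 it was 2.26 higher but did not pass (q = 0.447), as no gene on the array did. Of 11 genes of fatty acid synthesis, 7 were lower in wild-type with a median of -0.37. In Trp53-/- cells 4 were lower and 1 higher, with a median of -0.13 (-0.25 without replicate 2).

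**Figure D5:**
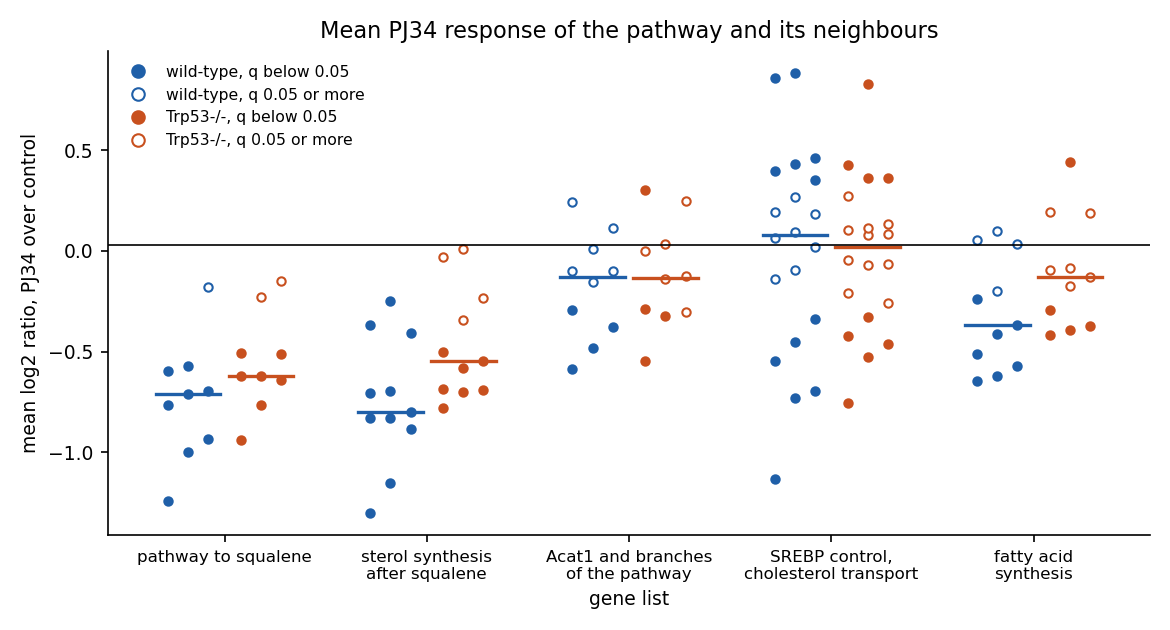
Mean log2 ratio of PJ34 over control (y axis, n = 2 arrays per genotype) for each gene of 5 lists (x axis), with filled symbols at q below 0.05, thick lines at list medians and a thin line at the median of all genes in wild-type. The members and the enzymes after squalene lie almost wholly below the line, and the genes of SREBP control and cholesterol transport lie on both sides of it.

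The genes whose 4 ratios lay nearest to the median profile of the members (-0.65, -0.80, -0.67 and -0.52 in wild-type replicates 1 and 2 and Trp53-/- replicates 1 and 2) were sought by Euclidean distance over the 4 arrays among 20222 other genes. Among the 5 nearest were *Rhoc* at a distance of 0.0681, *Ddah2* at 0.101, *Erg28* at 0.106 and *2810416G20Rik* at 0.116. *Insig1*, of the list of SREBP control, followed at rank 13.

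The summed level of markers of another cell type was lower with PJ34 on the same arrays, while single markers were mixed. All 8 listed oligodendrocyte markers, among them *Mbp* and *Sox10*, were well above background in both channels of every array. Their summed level was 13.66, 13.47, 14.19 and 14.21 (log2 intensity) in the control channel of the 4 arrays and 13.48, 13.11, 13.54 and 13.63 in the PJ34 channel, lower with PJ34 on each. *Olig2* was the brightest of them and weighed most in the sum. The median log2 ratio of the 8 markers was -0.10, -0.23, -0.49 and -0.23. *Mbp* (0.31), *Mog* (0.34) and *Sox10* (0.14) were higher with PJ34 in wild-type replicate 2. So were *Cnp* (0.18) in wild-type replicate 1 and *Mog* (0.13) in Trp53-/- replicate 1. The part of these markers in the decrease of the members was not tested. In bulk RNA, fewer cells of a type and less RNA per cell cannot be told apart.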

How the data were processed

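The authors used Agilent SurePrint G3 Mouse GE arrays, read with Feature Extraction 10.7.3.1. From the deposited scanner files the uncorrected intensity was taken, as the mean of each spot and the median of the background around it, in both colours. The log10 ratios in the deposited files were computed by the scanner software and served, as log2, only as an alternative. A further deposited table holds 4 columns whose names match no array, and it was left out. Positions refer to mm9. RefSeq accessions (GRCm38.p6) gave the symbols of 26300 of 55681 probes.

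With limma 3.58.1 (R 4.3.3), background was corrected by normexp (offset 50, all spots) and ratios were normalized by loess, in which control spots and the 228 to 276 outlier spots per array had no weight. Those spots were left out and spots of a probe averaged. The filter kept probes with at least 1 channel well above background on each array of at least 1 genotype (27042 probes, 48.6%), and a gene was read from its brightest probe. limma was fitted to all 4 arrays with a mean per genotype, with 2 residual degrees of freedom, 10.27 after moderation of the variances (6.07 for control levels). Storey's q was computed over 20231 genes. The number of arrays limits the precision, and p-values measure the spread between RNA preparations. Control levels were compared after Aquantile normalization. The alternatives changed the background correction (none, or an offset of 16), the normalization (scanner ratios, centring, scaling), the filter, the variance model, the adjustment, the tested threshold (treat), the reading of a gene (its probes averaged), the block and the arrays included.

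The members and lists were chosen with earlier results of these data known. All 9 members are named. From the other lists those called in a contrast (up to 4 per list and contrast) are named, with *Insig1*, *Srebf2* and *Srebf1* and the 5 genes nearest to the median profile. Some genes that this rule names are not reported here.

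Same-numbered replicates did not deviate together (correlation of -0.178 for ratios and 0.0841 for control levels), so numbers were not used as pairs. Each array had its own slide and scan, which could not be used as a block.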

Additional observations from a re-analysis of the deposited data

How the results depend on the processing

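Of the alternatives run, those that centre the array moved the members most. Centring on the median of all spots in place of loess moved all genes to medians of 0.46 in wild-type and 0.63 in Trp53-/- cells, and the members to -0.017 and 0.40, or -0.47 and -0.22 relative to all genes, with 8 of 9 members below all genes in each. It gave 1 member lower, 1 higher and 0 called in wild-type (0.895% of all genes lower and 66.7% higher), and 0 lower and 7 higher in Trp53-/- cells (0.969% and 74% of all genes), with a median difference of -0.43. *Mvk* (0.093), *Pmvk* (0.52) and *Sqle* (0.015) turned above 0 in wild-type, and *Acat2* (0.40), *Hmgcs1* (0.43), *Mvk* (0.43), *Pmvk* (0.83), *Idi1* (0.18), *Fdps* (0.41), *Fdft1* (0.36) and *Sqle* (0.37) in Trp53-/- cells. Centring on the kept genes, chosen after seeing the data, gave medians of -0.48 and -0.22 with 1 member higher in Trp53-/- cells, *Pmvk* at 0.20 (0.056 in wild-type). The cause was not tested.

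In wild-type, 2 members (*Mvd* and *Idi1*) were called with no background correction, the scanner software's ratios, an offset of 16 or scaling between arrays. Of all 20231 genes, 53, 178, 61 and 54 were called lower under these settings, against 43 in the main fit. Without wild-type replicate 1, *Mvd* (-1.25) and *Fdps* (-1.06) were lowered more than 2-fold. Without wild-type replicate 2, *Mvd* (-1.23) and *Idi1* (-1.20) were. limma's treat against 2-fold left 0 members lower and 0 called in wild-type and 0 lower in Trp53-/- cells. Of all genes it left 0% lower in wild-type and 0.00494% in Trp53-/- cells. The scanner software's ratios left 4 lower in Trp53-/- cells, where 2.86% of all genes were lower. The calls lost were *Mvk* (-0.48, q = 0.0673), *Fdps* (-0.58, q = 0.0508) and *Fdft1* (-0.54, q = 0.0587), and in wild-type *Mvk* (-0.54, q = 0.0551 in limma). With Trp53-/- replicate 1 alone *Mvd* was at -1.11 in that genotype, and with replicate 2 alone at -0.76. When an array was left out, the differences of *Mvk* and *Pmvk* between genotypes ranged from -0.22 to 0.049 and from -0.13 to 0.078, above 0 without wild-type replicate 2 and without Trp53-/- replicate 2.

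For untreated levels, the 75th percentile in place of quantiles gave a median of 0.049, with *Fdft1* at 0.13 and *Sqle* at 0.049. Without wild-type replicate 1, *Acat2* was at -1.04, *Mvk* at -0.41 and *Hmgcs1* at 0.45. Without wild-type replicate 2, *Acat2* was at -0.51, *Idi1* at -0.76 and *Mvd* at 0.67. Such fits rest on a lone wild-type array. When an array was left out, *Mvd* ranged from -0.033 to 0.67, *Hmgcs1* from -0.11 to 0.45 and *Fdft1* from -0.36 to 0.30, with the ends set by leaving out 1 or the other wild-type array. A fit of both channels gave 1 member lower, *Acat2*, where 6.28% of all genes were lower. The replicate block gave 1 member lower in untreated levels, *Acat2* (q = 0.0306 in limma), where 7.69% of all genes were lower. For the ratios the block gave 8 and 7 members lower and 1 and 0 called in wild-type and Trp53-/- cells, as without it. Of all genes 9.81% and 9.44% were then lower. Crossed numbers, added after seeing the data, gave 8 members lower in each genotype, where 14.4% and 14% of all genes were. All 9 members kept a ratio below 0 in both genotypes under every alternative other than centring, and depth set no limit for them, since their signals were well above background.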
